A study of Mus musculus with 2 samples.

Results

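The probes described here measure the mouse miRNAs named miR-297, miR-466, miR-467 and miR-669, most of which are cut from hairpins in an intron of Sfmbt2. They were chosen by name: every miRNA spot whose first name began with one of these 4 numbers followed by a letter or a hyphen, in any arm. This gave 71 of the array's 1900 miRNA probes, of which 4 were miR-297, 27 miR-466, 13 miR-467 and 27 miR-669 probes. They name 80 miRNAs in all, since 7 of the probes name several miRNAs each and are placed here by the first name. The cells were B16, a mouse melanoma line, grown with 5% fetal bovine serum, and no deletion or transgene is given for them. One culture condition received an siRNA against Fam222B and the other a control siRNA, both with a lipid transfection reagent, and RNA was taken 48 h later. Each group had 1 array (n = 1), so no value here carries a replicate error and the groups could not be tested against each other.

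Sfmbt2 encodes a Polycomb group protein. In the mouse it is imprinted, is expressed from the paternal allele in extraembryonic tissue, and is needed for a normal placenta. Its intron carries a large rodent miRNA cluster that grew by repeated local duplication, so its hairpins are close copies of each other. Their arms hold runs of alternating G and U or of alternating A and C. A miRNA hairpin gives a product from its 5′ side (5p) and one from its 3′ side (3p), and the seed, bases 2 to 8 of a product, does most of the pairing with target mRNAs.

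The label of a single intronic cluster held for most but not all of the probes. In the RefSeq annotation of GRCm38.p6, the 4 families had 82 hairpin genes, of which 72 lay inside Sfmbt2 and 10 elsewhere. Of the 71 probes, 57 named products of hairpins inside Sfmbt2 only, 9 named products of hairpins elsewhere only, and 5 (3 of miR-466f and 2 of miR-297) named products of both. The duplication is visible in the gene order, in which a miR-467, a miR-466 and a miR-669 hairpin followed each other in 12 places. By name, miR-669a had 12 hairpins, miR-467a 10 and miR-466b 8.

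RefSeq mature sequences were at hand for 8 of the 80 names, and all 8 belong to hairpins outside Sfmbt2. They are printed here because they show the alternating repeats that the families share and include both detected and undetected members. Each is written 5′ to 3′ with its seed in capitals.
miR-466i-3p: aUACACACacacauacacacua
miR-467f: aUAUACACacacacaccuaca
miR-467g: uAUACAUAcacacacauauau
miR-466q: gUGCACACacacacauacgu
miR-466j: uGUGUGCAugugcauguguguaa
miR-669n: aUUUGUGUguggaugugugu
miR-467h: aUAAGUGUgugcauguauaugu
miR-466k: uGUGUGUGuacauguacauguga
Their GRCm38.p6 positions are chr13:17747552-17747573 (+) for miR-466i-3p, chr11:69635419-69635439 (-) for miR-467f, chr5:34732872-34732892 (-) for miR-467g and chr3:28419988-28420007 (+) for miR-466q. miR-466j is at chr10:60960802-60960824 (+), miR-669n at chr3:115979905-115979924 (+), miR-467h at chr9:115381898-115381919 (+) and miR-466k at chr3:85467396-85467418 (+). The first 4 were rich in A and C (70.0% to 86.4% of bases) and the last 4 in G and U (68.2% to 90.0%). No seed was shared between any of the 8, although the names place them in 3 subfamilies. Among the other array miRNAs with a sequence, the seed of miR-467h was also that of miR-668-5p.

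The values are net signals: the median intensity of a spot at 635 nm minus the mean of the 896 blank spots of the same array (70.3 units for control-siRNA and 69.9 for Fam222B-siRNA). A probe was called detected above the mean plus 2 SD of the blank spots, computed without their lowest and highest 5%. This threshold lay 2.28 net units above the blank mean in control-siRNA and 2.59 in Fam222B-siRNA cells. Of the blank spots themselves, 7.81% and 6.70% passed. Net signal depends on the probe as well as on the miRNA, so the order of different probes describes their signals and not the amounts of their miRNAs. miR-211-5p, a melanocyte miRNA, gave 264 net units in control-siRNA and 326 in Fam222B-siRNA cells. The liver miRNA miR-122-5p was detected on neither array, at 0.280 and 1.09 units. Of 4 markers of embryonic stem cells, miR-291a-3p, miR-294-3p and miR-295-3p were not detected on either array, and miR-290a-5p gave 19.2 and 13.5 units. The blood, muscle and neuron miRNAs miR-223-3p, miR-142a-5p, miR-1a-3p, miR-133a-3p and miR-124-3p gave 2.96 to 5.05 units in control-siRNA cells and -1.24 to 3.31 in Fam222B-siRNA cells. Each of them was called detected on the control-siRNA array, and of them only miR-133a-3p on the Fam222B-siRNA array. Detection calls at a few units thus also took in markers of other cell types. The melanocyte list also held miR-211-3p (83.3 and 70.4 units) and miR-204-5p (36.3 and 30.2). The Fam222B mRNA has no probe on the array, so its knockdown was not analysed here.

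The family was dim. In control-siRNA cells 35 of the 71 probes were detected (49.3%), where 64.2% of all 1900 miRNA probes were. In Fam222B-siRNA cells 23 were detected (32.4%), against 50.4% of all. Both arrays detected 21 of the 71, against 47.9% of all probes. The member share was thus below the share of all probes on each array. The control-siRNA array alone detected 14 members (19.7%, against 16.3% of all probes) and the Fam222B-siRNA array alone 2 (2.82%, against 2.53%), so these shares were close to those of the whole array. Neither array detected 34 (47.9%, against 33.3% of all). The median net signal over the 71 was 2.27 units in control-siRNA and 1.13 in Fam222B-siRNA cells, against 3.75 and 2.64 over all miRNA probes. At least 10 net units were reached by 5 members in control-siRNA (7.04%, against 24.8% of all probes) and by 6 in Fam222B-siRNA cells (8.45%, against 24.2%). All 71 together held 0.165% of the array's summed net miRNA signal after control siRNA and 0.151% after Fam222B siRNA, with values below the blank mean set to 0.

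miR-466i-5p was the brightest member on each array, at 26.7 net units in control-siRNA and 22.9 in Fam222B-siRNA cells. Its hairpin lies outside Sfmbt2, on chromosome 13, where the partner arm miR-466i-3p printed above gave 9.56 and 8.78 units. The brightest product of the Sfmbt2 hairpins was miR-466h-3p, at 13.9 and 16.04 units. miR-669c-3p followed at 12.5 and 15.1 units. miR-466m-3p gave 11.0 and 10.3 units, and miR-466f-3p gave 10.2 and 10.6. These 5 had the highest net signals in control-siRNA cells. On the other array miR-466c-5p (14.1 units) was also among the 5 highest, in place of miR-466m-3p. Over the 71 probes, the net signals of both arrays had a Pearson's r of 0.890 and a Spearman's rho of 0.813, and r was 0.860 without miR-466i-5p. This is a description across probes that share sequence and one print design.

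**Figure D1:**
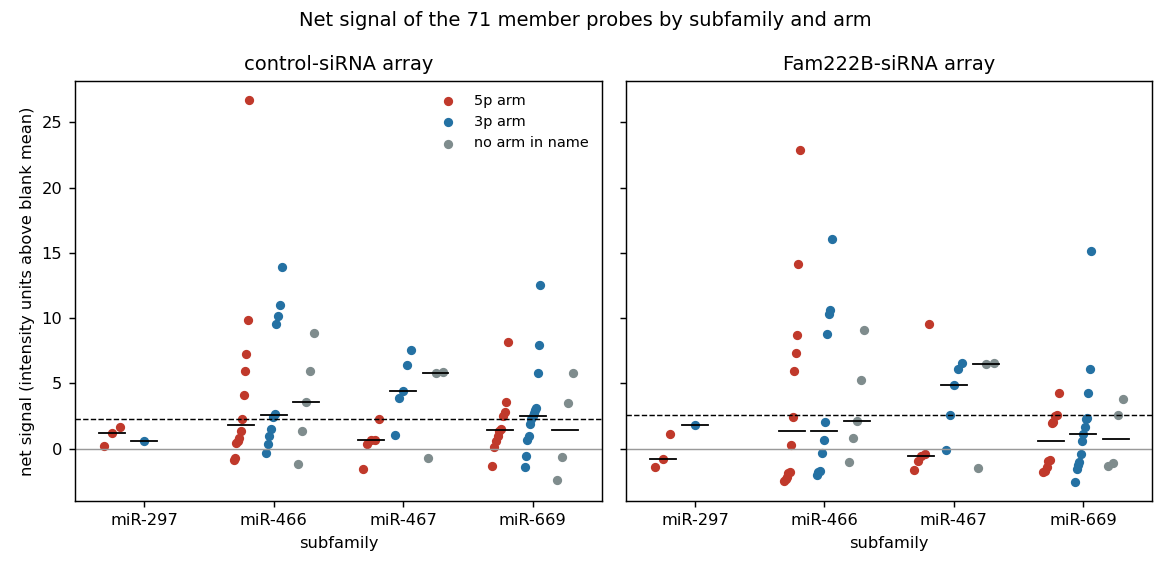
Net signal (intensity units above the blank mean) of each of the 71 probes on the control-siRNA array (left) and the Fam222B-siRNA array (right), by subfamily and by arm (red 5p, blue 3p, grey no arm in the name), with short black lines at medians and a dashed line at the detection threshold (2.28 and 2.59 units). Every miR-297 probe lies below the dashed line on each array, and miR-466 holds the highest point on each, miR-466i-5p at 26.7 and 22.9 units.

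The 4 subfamilies differed in how many probes gave signal. None of the 4 miR-297 probes was detected on either array. miR-297c-5p gave 1.67 net units in control-siRNA and -1.42 in Fam222B-siRNA cells, miR-297a-5p 1.21 and 1.09, and miR-297b-5p 0.184 and -0.820. The probe that names the 3p arms of miR-297a, miR-297b and miR-297c gave 0.611 and 1.83 units. All these values were within 2 units of the blank mean, so miR-297 was not detectable at this signal over background.

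Of the miR-466 probes, 11 of 27 were detected on both arrays (40.7%), 3 on the control-siRNA array alone and none on the Fam222B-siRNA array alone. Of the miR-467 probes, 5 of 13 were detected on both (38.5%), 2 on the control-siRNA array alone and 1 on the Fam222B-siRNA array alone. Of the miR-669 probes, 5 of 27 were detected on both (18.5%), 9 on the control-siRNA array alone and 1 on the Fam222B-siRNA array alone. These shares describe names and are mixed with the place of the hairpins, so they are not shares of the Sfmbt2 cluster. Among the probes detected on both arrays, miR-466i-5p, miR-466i-3p, miR-466j, miR-467f, miR-467g and miR-669n come from hairpins elsewhere only. Those of miR-466f come from hairpins inside Sfmbt2 and elsewhere. On the control-siRNA array the shares of miR-466, miR-467 and miR-669 were close together, at 51.9%, 53.8% and 51.9%. On the Fam222B-siRNA array they were 40.7%, 46.2% and 22.2%. The shares of all probes were 64.2% and 50.4%. The lower count of miR-669 probes on both arrays depended on the background: with the No Probe spots in place of the blank spots, both arrays detected 44.4% of miR-669, 44.4% of miR-466 and 46.2% of miR-467 probes. Several of the miR-669 probes detected in control-siRNA cells were near the threshold there: miR-669k-5p, for example, gave 2.78 units, and 1.96 in Fam222B-siRNA cells.

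Median net signals of the subfamilies lay close to the threshold. In control-siRNA cells they were 2.46 units for miR-466, 2.30 for miR-467, 2.29 for miR-669 and 0.912 for miR-297. In Fam222B-siRNA cells they were 2.05, 2.56, 1.13 and 0.135 units in that order. The highest values separated the subfamilies more than the medians did, but they rest on single probes. That of miR-466 was miR-466i-5p, from a hairpin outside Sfmbt2. The next, miR-466h-3p (13.9 and 16.04 units), lay near the highest of miR-669, miR-669c-3p (12.5 and 15.1). miR-467 had its highest value with miR-467d-3p in control-siRNA cells (7.57 units) and with miR-467a-5p in Fam222B-siRNA cells (9.58 units). The latter gave 0.666 units in control-siRNA cells and was printed in block 25 of the array. Since members are close copies, a signal may be shared between relatives, and the subfamilies are described by counts without a test.

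More of the 3p than of the 5p probes passed the threshold. Arms are described by counts, without a test. On the control-siRNA array 18 of 29 3p probes (62.1%) and 10 of 30 5p probes (33.3%) passed the threshold, and on the Fam222B-siRNA array 10 (34.5%) and 8 (26.7%) did. The 3p share was thus near that of all probes (64.2%) on the first array and below it (50.4%) on the second, and the 5p share was below it on each. Both arrays detected 10 of the 3p probes (34.5%) and 6 of the 5p probes (20.0%), against 47.9% of all. With the threshold at 5 SD these shares were 17.2% and 13.3%. Median net signals were 2.65 units for 3p and 1.28 for 5p probes in control-siRNA cells, and 1.83 and -0.514 in Fam222B-siRNA cells. Names without an arm made up the other 12 probes, of which 5 were detected on both arrays. In miR-467, 3 of 5 3p probes and none of 5 5p probes were detected on both arrays, and at 5 SD no miR-467 probe was. In miR-466 the arms were alike in this count, with 4 of 10 3p and 5 of 12 5p probes.

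For 19 hairpin names the array carried a single-name probe for each arm. The arms are measured by different probes, so their net signals give no arm preference, and only detection is counted. In control-siRNA cells 12 of the 3p and 8 of the 5p probes were detected, and in Fam222B-siRNA cells 7 and 5. Both arms were detected on both arrays for 4 names, the 3p arm alone for 3 (miR-467a, miR-467b and miR-467d) and the 5p arm alone for 0, and for 6 names neither array detected either arm. The 4 names with both arms detected were miR-466f, miR-466h, miR-466i and miR-669c. miR-466h-5p, known in hamster cell cultures for favouring apoptosis under nutrient depletion, gave 4.10 net units in control-siRNA and 5.92 in Fam222B-siRNA cells. miR-466f-5p gave 9.83 and 8.74 units. miR-669c-5p, at 2.46 and 2.60 units, was just above the threshold on each array.

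**Figure D2:**
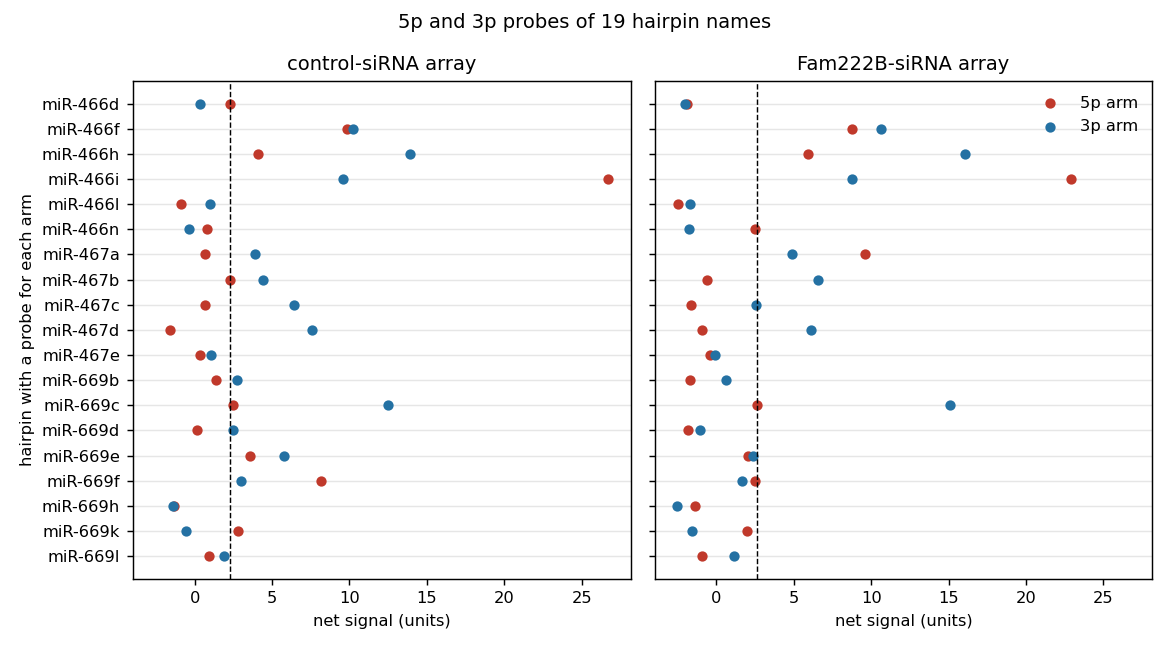
Net signal (units) of the 5p (red) and 3p (blue) probes of 19 hairpin names on each array, 1 name per row, with the detection threshold dashed. On the left panel 12 blue and 8 red points lie past the dashed line, and on the right panel 7 and 5.

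Members from hairpins outside Sfmbt2 and from inside it are described by counts, without a test. Of the 9 probes with hairpins elsewhere only, 6 were detected on each array and the same 6 on both (66.7%), with medians of 5.82 and 5.28 net units. That share was near the 64.2% of all probes on the control-siRNA array and above the 50.4% on the Fam222B-siRNA array. Of the 57 probes with hairpins in Sfmbt2 only, 26 were detected in control-siRNA cells (45.6%), 14 in Fam222B-siRNA cells (24.6%) and 12 on both (21.1%), with medians of 1.67 and 0.242 units, so these shares were below those of all probes. The arms of miR-466i are 2 of the 9 probes, and without them 4 of 7 were detected on both arrays. miR-466j, rich in G and U, gave 5.92 and 5.28 units, and miR-669n 5.76 and 3.79. miR-467g and miR-467f, rich in A and C, gave 5.86 and 6.46, and 5.82 and 6.54. The 3 that neither array detected were miR-466q (1.39 and 2.15), miR-467h (-0.750 and -1.49) and miR-466k (-1.18 and -1.06), so both kinds of repeat occurred among detected and undetected probes.

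The hairpins of miR-669n and miR-466k show how differently the repeat can be embedded. They are written whole from RefSeq, GRCm38.p6, with the mature product in capitals.
Mir669n: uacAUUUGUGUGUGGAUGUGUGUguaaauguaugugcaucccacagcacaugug
Mir466k: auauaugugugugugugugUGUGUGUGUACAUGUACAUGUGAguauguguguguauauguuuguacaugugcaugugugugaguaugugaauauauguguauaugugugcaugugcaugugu
Mir669n lies at chr3:115979902-115979955 (+) and is 54 bases long, and its product was detected on both arrays. Mir466k lies at chr3:85467377-85467498 (+), is 122 bases long and continues the G and U repeat upstream of its product, which neither array detected.

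A stretch of the repeat, UGUGUGUG, was also looked for as written in the mature sequences of the 1614 array miRNAs that have a single-name probe and a RefSeq entry. It occurred in 7 (0.434%): the members miR-669n and miR-466k, and 5 miRNAs outside the 4 families. The 3 brightest of these are shown with the alternating run in capitals.
miR-574-5p: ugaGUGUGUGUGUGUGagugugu
miR-1187: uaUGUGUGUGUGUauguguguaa
miR-3082-5p: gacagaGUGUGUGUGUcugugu
They come from chr5:64970328-64970350 (+), chr5:82798964-82798986 (-) and chr17:25831406-25831427 (-). miR-574-5p gave 14.8 net units on each array, miR-1187 9.59 in control-siRNA and 6.0 in Fam222B-siRNA cells, and miR-3082-5p 7.79 and 7.06. miR-672-5p was detected in control-siRNA cells alone (5.31 and 1.16) and miR-32-3p on neither array (1.12 and 1.29). The repeat thus occurred in both detected and undetected probes outside the families.

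Within Sfmbt2, 37 of the 72 hairpins had a product detected on both arrays, and these carried 12 of the 36 hairpin names found there. Copies of a name share 1 probe, so the 37 are not separate measurements. The 10 hairpins of miR-467a are counted through the probe of miR-467a-3p. The counted hairpins of miR-669a and miR-669o enter through their shared 3p probe. It gave 2.29 units in control-siRNA cells, against a threshold of 2.28. Counted by probes, both arrays detected 12 of the 57 with hairpins in Sfmbt2 only (21.1%), against 47.9% of all probes. In chromosome order the 37 ran from hairpin 1, Mir466m, to hairpin 67, Mir466h. Hairpins were also counted per probe, summed over all the names of a shared probe. Both arrays detected 13 of 54 probes with 1 hairpin (24.1%). They detected 6 of 10 probes with 2 to 4 hairpins (60.0%, 3 of the 10 being miR-466f) and 2 of 7 with 5 or more (28.6%). The last group holds miR-467a-5p and the shared 3p probe of miR-669a and miR-669o, both printed in the same block, number 25.

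**Figure D3:**
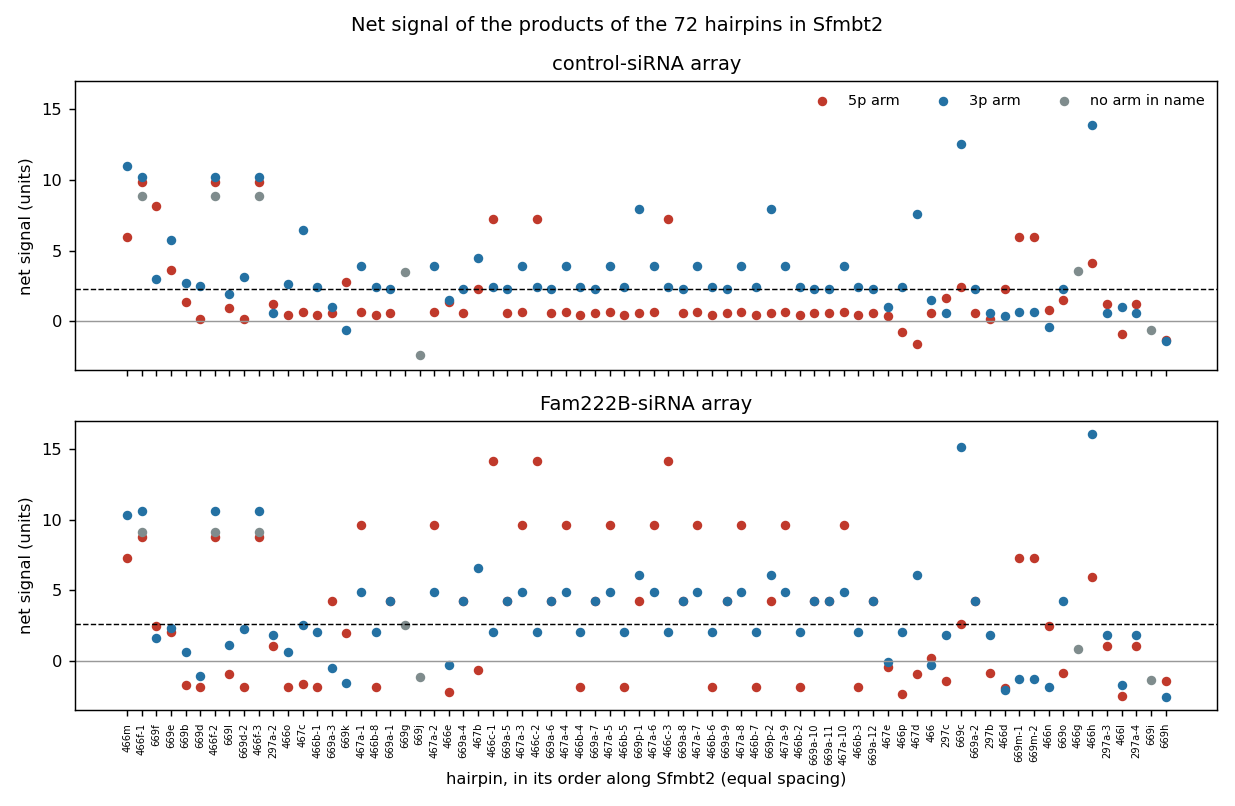
Net signal (units) of the products of the 72 hairpins inside Sfmbt2, in their order along the chromosome with equal spacing, on the control-siRNA array (top) and the Fam222B-siRNA array (bottom), coloured by arm and with the detection threshold dashed. Copies that share a probe repeat its value, which gives the rows of equal points in the middle, and the highest points are miR-466h-3p (13.9 and 16.04 units) near the right end and miR-669c-3p (12.5 and 15.1).

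The comparison of the arrays asked how these miRNAs differ in B16 cells after Fam222B siRNA as against control siRNA. Net signal was lower in Fam222B-siRNA cells for 50 of the 71 probes and higher for 21, with a median change of -0.972 units. All 1900 miRNA probes had a median change of -1.31 units, lower for 1379 and higher for 521, so most probes of the whole array also had lower net signal there. For probes detected on both arrays, differences are given as log2 of Fam222B-siRNA over control-siRNA net signal, centred so that the median over all 910 such miRNA probes is 0. Beside them stands a within-array spot SD, built from control probes printed 8 times per array and from the blank spots, which holds no difference between cultures or hybridisations.

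Over the 21 members detected on both arrays the median log2 difference was 0.20, with 14 above and 7 below 0, against a median of 0 over all 910. The values ran from -0.49 to 1.08, and the median spot SD of the 21 was 0.50, so most differences were within the spread of single spots. At least 2-fold higher signal in Fam222B-siRNA cells was seen for 2 of the 21, where 2.97% of the 910 were called, and at least 2-fold lower signal for 0 of 21, where 2.42% were. With 1 array per group no p-value could be had. Past 2 spot SD, 1 of the 21 was higher (7.8% of the 910) and 0 were lower (1.76%).

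Among the 21 members detected on both arrays, miR-466c-5p had the highest difference, at 7.26 net units in control-siRNA and 14.1 in Fam222B-siRNA cells (log2 difference 1.08, spot SD 0.36). It was the 1 of the 21 past 2 spot SD. The shared probe of miR-669a-3p and miR-669o-3p gave 2.29 and 4.25 units (1.01, spot SD 1.13), with the control value just above the threshold. miR-669a is known in mouse for restraining muscle differentiation. Both probes were printed in block 25 of the array's 32 blocks. There the 56 miRNA probes had a median net change of 2.05 units, the highest of all blocks, and 39 of them had a higher net signal in Fam222B-siRNA cells. Block medians above 0 were found in 3 blocks. The 28 blank spots of block 25 lay 0.503 units below the array's blank mean in control-siRNA cells and 0.431 above it in Fam222B-siRNA cells. With these as background, a setting chosen after the data were seen, the differences were 0.93 for miR-466c-5p and 0.57 for the shared miR-669a-3p probe, and no member reached 2-fold. Some other settings moved these values too: in the same order they were 0.96 and 0.90 without centring, 0.18 and 0.08 with normexp background correction and quantile normalization, and 0.37 and 2.31 with the files' own background column. miR-466c-5p was thus under 2-fold in each of these. It stayed over 2-fold with No Probe spots (1.12), without shared probes (1.08) and with the trimmed blank mean (1.07). The same held with equal 75th percentiles (1.08), equal spike controls (1.13) and the authors' values (1.07). Most of these settings could hardly move it, and all use the same spots of block 25. Equal percentiles, equal spike controls and leaving out shared probes shift all differences by a common amount. The authors' background (70.2 and 69.8 units) is nearly the trimmed blank mean. These values are thus no separate support for a 2-fold difference. The shared miR-669a-3p probe was at 1.22 with No Probe spots and at 0.998 with the trimmed blank mean. The part of the block in these differences was not tested further.

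**Figure D4:**
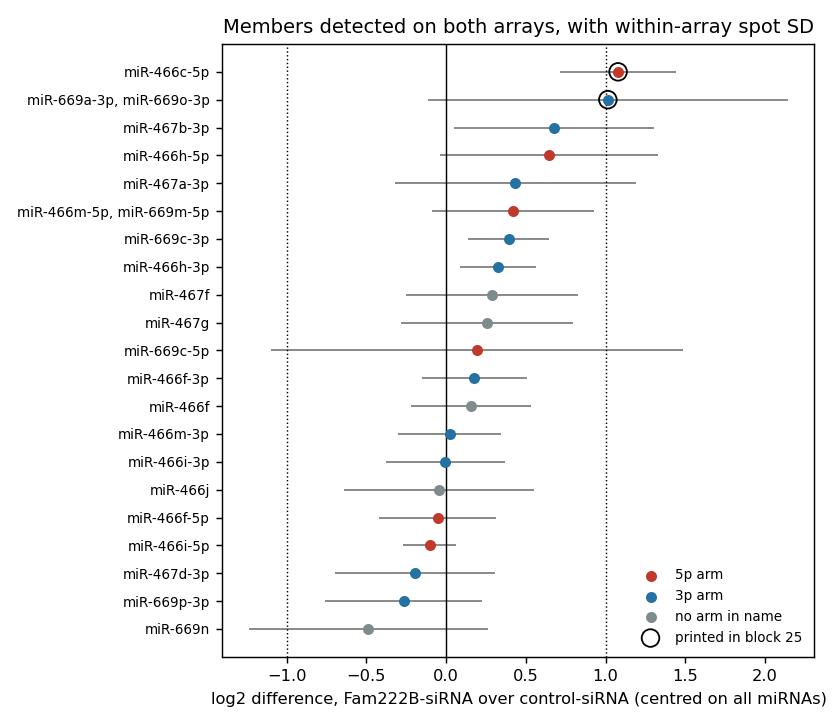
Log2 difference (Fam222B-siRNA over control-siRNA, centred on all miRNAs detected on both arrays) of the 21 members detected on both arrays, with bars of 1 within-array spot SD, coloured by arm, and dotted lines at 2-fold. The 2 circled probes at the top, printed in block 25, are the only ones past a dotted line, and miR-669n is lowest at -0.49.

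Among the other members detected on both arrays, miR-467b-3p gave 4.45 and 6.55 net units (log2 difference 0.68, spot SD 0.63). The miR-467 miRNAs are known in mouse for repressing the angiogenesis inhibitor thrombospondin-1. miR-466h-5p gave 4.10 and 5.92 units (0.65, spot SD 0.68), and miR-467a-3p 3.91 and 4.87 (0.44). The shared probe of miR-466m-5p and miR-669m-5p gave 5.93 and 7.31 units (0.42). None of these differences was larger than 2 spot SD. The bright miR-669c-3p and miR-466h-3p had differences of 0.39 (spot SD 0.26) and 0.33 (spot SD 0.24). With the files' own background column in place of the blank spots, 10 members were above and 10 below 0, and the sign turned for miR-466h-3p (-1.21), miR-466h-5p (-0.12) and miR-669n (0.18) among others.

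Smaller differences were found for miR-467f (0.29), miR-467g (0.26), miR-669c-5p (0.20), miR-466f-3p (0.18), miR-466m-3p (0.02) and miR-466i-3p (-0.0045). The probe named miR-466f without an arm gave 8.86 and 9.11 net units (0.16), and miR-466f-5p gave 9.83 and 8.74 (-0.05). On the lower side miR-466j was at -0.04 and the brightest member, miR-466i-5p, at -0.10 (spot SD 0.16). miR-467d-3p gave 7.57 and 6.10 units (-0.19), and miR-669p-3p 7.96 and 6.10 (-0.27). The lowest difference was that of miR-669n, at 5.76 and 3.79 units (-0.49, spot SD 0.75). Members from Sfmbt2 hairpins only had a median difference of 0.41 over 12 probes, and those from elsewhere -0.02 over 6. Of the 12, 10 were above 0, and 2 of those 10 were the probes of block 25. These medians leave out members detected on 1 array alone. Among Sfmbt2-only probes 14 were detected in control-siRNA cells alone and 2 in Fam222B-siRNA cells alone, and from elsewhere 0 and 0. Over all 57 Sfmbt2-only probes net signal was lower in Fam222B-siRNA cells for 43 and higher for 14 (median change -1.31 units). Over the 9 from elsewhere it was lower for 5 and higher for 4 (-0.632), against -1.31 over all miRNA probes.

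For members detected on 1 array alone only a bound can be given, against the higher of the lowest detected net signal and the probe's own value on the other array. miR-669f-5p gave 8.18 net units in control-siRNA and 2.51 in Fam222B-siRNA cells, just under the threshold, and was at least 2.90-fold lower in the latter on the centred scale. miR-467c-3p, at 6.43 and 2.56 units, was at least 2.28-fold lower, and miR-669e-3p, at 5.78 and 2.35, at least 2.05-fold lower. Each of these was still above the blank mean on the Fam222B-siRNA array. The bounds take no account of the spot SD and rest on the blank spots as background. With No Probe spots as background, 30 members had a difference and 1 of them was at least 2-fold lower. miR-669f-5p and miR-467c-3p were printed in block 1, where miRNA probes had a median net change of -1.86 units. For miR-669e-3p, in block 17, it was -0.321, and over all miRNA probes -1.31. The part of the block was not tested. The others detected in control-siRNA cells alone were miR-669e-5p, miR-466g, miR-669g, miR-669d-2-3p and miR-669f-3p, with bounds from 1.05-fold to 1.28-fold, and 6 for which the bound gave no fold. Those 6 were miR-669k-5p, miR-669b-3p, miR-466o-3p, miR-669d-3p, miR-467b-5p and the shared 3p probe of miR-466b, miR-466c and miR-466p. Their net signals in control-siRNA cells lay between 2.30 and 2.78 units.

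In the other direction, miR-467a-5p gave 0.666 net units in control-siRNA and 9.58 in Fam222B-siRNA cells, at least 4.56-fold higher. It was the third member of the family in block 25, so that all 3 members printed there had higher net signal in Fam222B-siRNA cells. With the blank spots of its block it gave 1.17 and 9.15 units. Its partner arm miR-467a-3p, printed in block 27, gave 3.91 and 4.87 units. The shared 5p probe of miR-669a and miR-669p, also in block 27, gave 0.569 and 4.23 units, at least 2.01-fold higher. There the 56 miRNA probes had a median net change of -0.418 units, against -1.31 over all miRNA probes. Relative to the array's blank mean, the blank spots of block 27 were at -0.793 units in control-siRNA and -0.197 in Fam222B-siRNA cells. The part of the block was not tested.

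**Figure D5:**
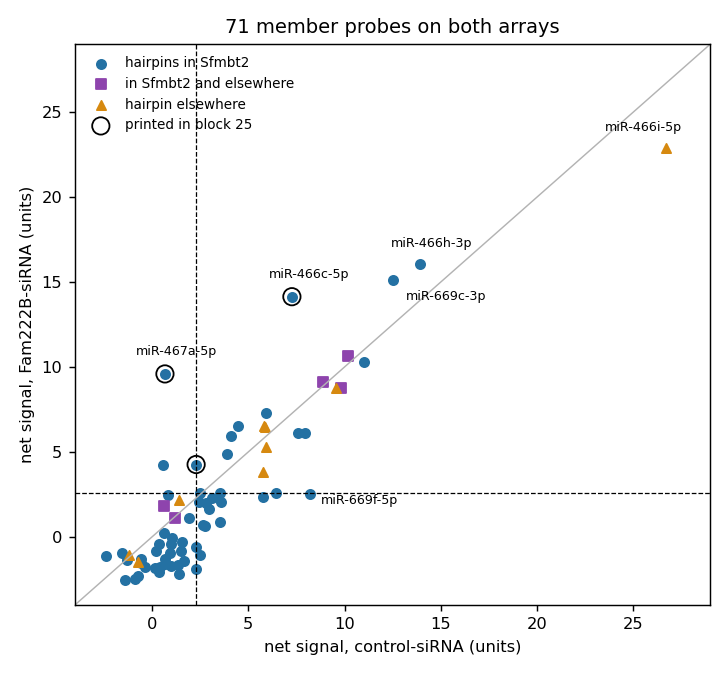
Net signal (units) of the 71 probes in control-siRNA cells (horizontal) against Fam222B-siRNA cells (vertical), by the place of their hairpins, with detection thresholds dashed, a grey line of equal signal and circles around the 3 probes of block 25. miR-467a-5p (0.666 and 9.58) and miR-466c-5p (7.26 and 14.1) stand above the grey line, and miR-669f-5p (8.18 and 2.51) below it.

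The 34 probes that neither array detected had net signals from -2.40 to 2.27 units in control-siRNA cells and from -2.53 to 2.46 in Fam222B-siRNA cells. Beside the 4 miR-297 probes they were 13 of miR-466, 5 of miR-467 and 12 of miR-669. Among them were both arms of miR-466d, miR-466l, miR-466n, miR-467e, miR-669h and miR-669l. miR-466l-3p, known in mouse macrophages for stabilising Il10 mRNA, gave 0.999 and -1.71 units. miR-669j had the lowest value in control-siRNA cells (-2.40) and miR-669h-3p in Fam222B-siRNA cells (-2.53). No fold is given for these probes, since both values were under the detection threshold.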

How the data were processed

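The deposited scanner files hold spot medians of intensity at 635 nm, not background-corrected, per the file headers, which also give straight-line fits between 3 scanner gains. RNA was labelled with Cy5 for a Toray 3D-Gene array of 1 colour, per the labels. Neither the scanner, its software nor the probe sequences are given there. The authors' deposited table of processed intensity follows the scanner's spot medians linearly on each array, with factors of 3.40 and 3.69 and backgrounds of 70.2 and 69.8 units; its medians are 25.0 and 34.6. Its scale is linear and not centred per miRNA, and it served as an alternative.

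Net signal, detection and differences were computed in Python 3.11.15 as the report states. This replaces normexp (limma 3.58.1, R 4.3.3), which is an alternative. The 2 miRNA spots with an NG flag, neither a member, were left out of the differences. Spot SDs combine the CV of 5 bright control probes printed 8 times (4.67% and 4.78%) with the blank spots' SD (1.54 and 1.66 units). The steps were tested on simulated arrays. The number of arrays limits the precision. Hairpin places were matched by symbol in RefSeq.

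Named members are the 5 brightest per array, the 3 highest and 3 lowest differences, the brightest per subfamily and arm, the 3 brightest detected on 1 array alone, miR-466h-5p, miR-669f-5p and both arms of hairpins detected throughout; others were named as examples after their values were seen. The members and lists were chosen with earlier results of these data known.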

Additional observations from a re-analysis of the deposited data

How the results depend on the processing

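The number of detected members followed the threshold. With detection at the mean plus 5 SD of the blank spots, 17 members were detected on the control-siRNA array and 11 on the Fam222B-siRNA array, and both arrays detected 33.3% of miR-466, 0% of miR-467 and 3.70% of miR-669 probes, and 17.2% of 3p against 13.3% of 5p probes. With No Probe spots as background 35 members were detected in Fam222B-siRNA cells and 44.4% of miR-669, 44.4% of miR-466 and 46.2% of miR-467 probes on both arrays, and 1 member was at least 2-fold lower; with the BG_Median column as background 1 was as well. The count of members at least 2-fold higher was 1 with detection at 5 SD, with untrimmed blank spots for the threshold, without probes naming several miRNAs, with the trimmed blank mean and with the authors' deposited values. It was 0 without blocks 17, 18, 25 and 26, with blank spots of the same block, with normexp and without centring, and 4 at 1.5-fold. The setting without these blocks leaves out both members past 2-fold, since they were printed in block 25, so its 0 says nothing further about them. Likewise, the setting without shared probes leaves out the shared miR-669a-3p probe by rule. Detection at 5 SD and untrimmed blank spots leave it out by their higher thresholds, since its control-siRNA value was 2.29 against 2.28. The counts in these settings thus follow from the filter. The trimmed blank mean and the authors' values use nearly the same background. In the other 70 cases the value stayed within 1.5 times, within its binomial interval or within 1 spot SD. These limits are wide, and the binomial interval treats members as independent although they share sequence. With No Probe spots, for example, the share detected on both arrays was 51.7% for 3p and 30.0% for 5p probes, against 34.5% and 20.0%. Both changes fell within the limits. The median difference was above 0 in each setting run, but it was 0.033 with normexp. With the BG_Median column 10 members were above and 10 below 0. Each of these medians uses the same spots and only members detected on both arrays. In the main setting this leaves out 14 members detected in control-siRNA cells alone and 2 in Fam222B-siRNA cells alone. Its repeat across settings is thus no separate support for higher signal in Fam222B-siRNA cells. The spike controls moved the median of all miRNAs by 0.052, and no centring by -0.12. No paired analysis was possible because each group had 1 array. Signal over background limits detection: single-spot values within about 2 to 3 units of the blank mean cannot be told from blank spots.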
